A study of Homo sapiens with 24 samples.

Results

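The MYC, MAX and MXD network is a set of basic helix-loop-helix leucine zipper transcription factors that share DNA sites and dimerisation partners. Its members here were the rows of the gene count table whose Ensembl identifier, with the version removed, maps to MYC, MAX, MXD1, MXD3, MXD4, MXI1, MNT, MGA, MLX or MLXIP. These were 10 of the 60668 rows, and all 10 were among the 22158 genes that passed the filter on low counts. No measured value entered this rule.

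RNA was sequenced from 24 libraries of MCF-10A, an immortalised, non-tumorigenic human mammary epithelial cell line, grown in 3 dimensions on growth-factor-reduced Matrigel. The parental line was compared with MCF-10A MYC-ER, which carries MYC fused to an oestrogen receptor (MYC.ER), so that the ligand 4-hydroxytamoxifen (4-OHT) releases the fusion protein to act in the nucleus. Each line was exposed to 1 µM 4-OHT for 0, 8, 24 or 48 h, and all wells were collected together on day 5, which gave 8 groups of 3 libraries. The promoter that drives the fusion, the species of its parts and whether the line is a clone are not given in the sources used here. Because the parental line received the same 4-OHT series, it shows what the ligand and the time in it do without the fusion.

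MAX is the obligate partner of MYC: MYC:MAX dimers bind E-boxes, with CACGTG as the canonical form, and activate transcription of genes for ribosome production, nucleotide synthesis and cell growth. MXD1, MXD3, MXD4 and MXI1 also need MAX, bind the same sites, and recruit the SIN3 corepressor with histone deacetylases. MNT is a broadly expressed MAX partner that also binds SIN3, and MGA pairs with MAX inside a Polycomb complex called PRC1.6. MLX is a second hub beside MAX: it pairs with MLXIP (MondoA), a sensor of glucose-derived metabolites that drives TXNIP and ARRDC4, and it can also pair with MXD1, MXD4 and MNT. MXD genes are known to rise as cells leave the cycle and differentiate, and MXD3 is known for expression in proliferating cells.

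Several members carry the E-box themselves near their start sites, so the letters are shown before the values. RefSeq windows of 300 bases (GRCh38.p14, from 250 bases before to 50 bases after a gene's start) were held for 9 members in 14 windows. CACGTG, which reads the same on both strands, lay in a window of 3 members, MXD4, MNT and MLX. Among the 35116 windows of this length in the table, 7.26% held it. The variant E-box CACGCG, searched on both strands, lay in the window of MXD3 and in 1 of 3 windows each of MXI1 and MGA, against 11.4% of all windows. No member's window held both forms, so no matches overlapped. The windows of MAX, MXD1 and MLXIP held neither hexamer. The 60 bases around each canonical E-box, all upstream of the start, are given 5′ to 3′ on the gene's strand with the E-box in capitals:
MXD4 (chr4:2262300-2262359, minus strand): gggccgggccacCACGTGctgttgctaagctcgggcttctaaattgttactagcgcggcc
MNT (chr17:2401221-2401280, minus strand): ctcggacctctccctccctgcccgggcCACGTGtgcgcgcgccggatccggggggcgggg
MLX (chr17:42567008-42567067, plus strand): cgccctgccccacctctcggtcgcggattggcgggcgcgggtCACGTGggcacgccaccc
The first base of the E-box lay 238 bases before the start of MXD4, 193 before that of MNT and 50 before that of MLX. The 3 genes with the same hexamer did not share a direction after 8 h of 4-OHT in MYC-ER cells: MLX and MNT rose and MXD4 fell, as given below.

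Library totals ran from 136860029 to 182438505 counts. The mitochondrial share of counts was 9.24% to 9.71% in the MYC-ER libraries at 0 h, 3.86% in parental 0 h replicate 1 and 5.51% to 7.78% in the other 20. The MYC-ER 0 h libraries are the reference for every change from 0 h in that line, and the part of this share, or of the marker levels below, in those changes was not tested. The basal epithelial markers KRT5 (7474 to 13320 CPM, read counts scaled to a common library size) and TP63 (70.3 to 166 CPM) were present in all libraries, while the immune marker CD3E and the endothelial marker CDH5 had 0 counts. Of the other immune and endothelial markers, CD14 was at 2.67 to 8.33 CPM and PECAM1 at 0.0465 to 2.25 CPM. Of 5 fibroblast markers, COL1A1 (50.1 to 221 CPM) and DCN (21.2 to 156 CPM) were present and COL1A2 reached no more than 9 counts. The summed level of the 6 basal markers was 22740 to 33470 CPM in parental libraries and 11260 to 21110 CPM in MYC-ER libraries, so the lines also differed in these genes. The summed level of the fibroblast list was 362 to 378 CPM in the MYC-ER 0 h libraries and 76.3 to 144 CPM in the others, and that of 4 general epithelial markers was 232 to 239.7 CPM there against 390.4 to 685 CPM. Triplicates are labelled as wells, and nothing says that they came from separate cultures, so p-values measure the spread between these samples, which may be technical.

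At 8 h of 4-OHT in MYC-ER cells, MYC, MAX, MXD1, MNT, MLX and MLXIP rose, MXD3 and MXD4 fell, and MXI1 and MGA did not pass the test. Calls are edgeR quasi-likelihood tests with Benjamini-Hochberg adjusted p under 0.05 over all genes tested, and CPM are scaled by the trimmed mean of M values (TMM). The 6 rises and 2 falls stood beside 32.2% of all genes called higher and 35.4% called lower in that comparison. The median log2 change of the 10 members was 0.49, against -0.10 over all genes. At 24 h against 0 h 4 members were higher and 4 lower (30.4% and 31.2% of all genes), and at 48 h 3 were higher and 3 lower (23.4% and 20.7%). Without MYC-ER 0 h replicate 3 or MYC-ER 24 h replicate 3, 2 members in place of 4 were higher at 24 h. Between 8 h and 24 h 2 members rose and 7 fell (28.4% and 27.1% of all genes), with a median of -0.54 against 0.05 over all genes. Between 24 h and 48 h 3 rose and 3 fell (28.2% and 25.5%). In bulk libraries fewer cells of a type and less RNA per cell cannot be told apart. The comparisons with 0 h share the same 3 libraries, as do those with 8 h and with 24 h.

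In parental cells 2 members were higher and 3 lower at 8 h (15% and 16% of all genes), 3 and 3 at 24 h (21.2% and 21.7%), and 4 and 3 at 48 h (20.4% and 20.1%). Of the 6 members that rose at 8 h in MYC-ER cells, 1, MXD1, also passed the test upward in parental cells at 8 h. Of all genes 15% were higher there, and the share among all genes that rose in MYC-ER cells was not counted. The parental counts rest partly on the 0 h libraries: without parental 0 h replicate 3 the count at 8 h was 3 in place of 5, and that of lower members at 48 h was 1 in place of 3. Without parental 8 h replicate 2, 1 member in place of 2 was higher at 8 h. Fits with only the groups compared gave 2 at 8 h and 2 at 48 h, the latter in place of 7, and among those lost was MXD1 at 8 h (0.43, adjusted p 0.0628).

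**Figure D1:**
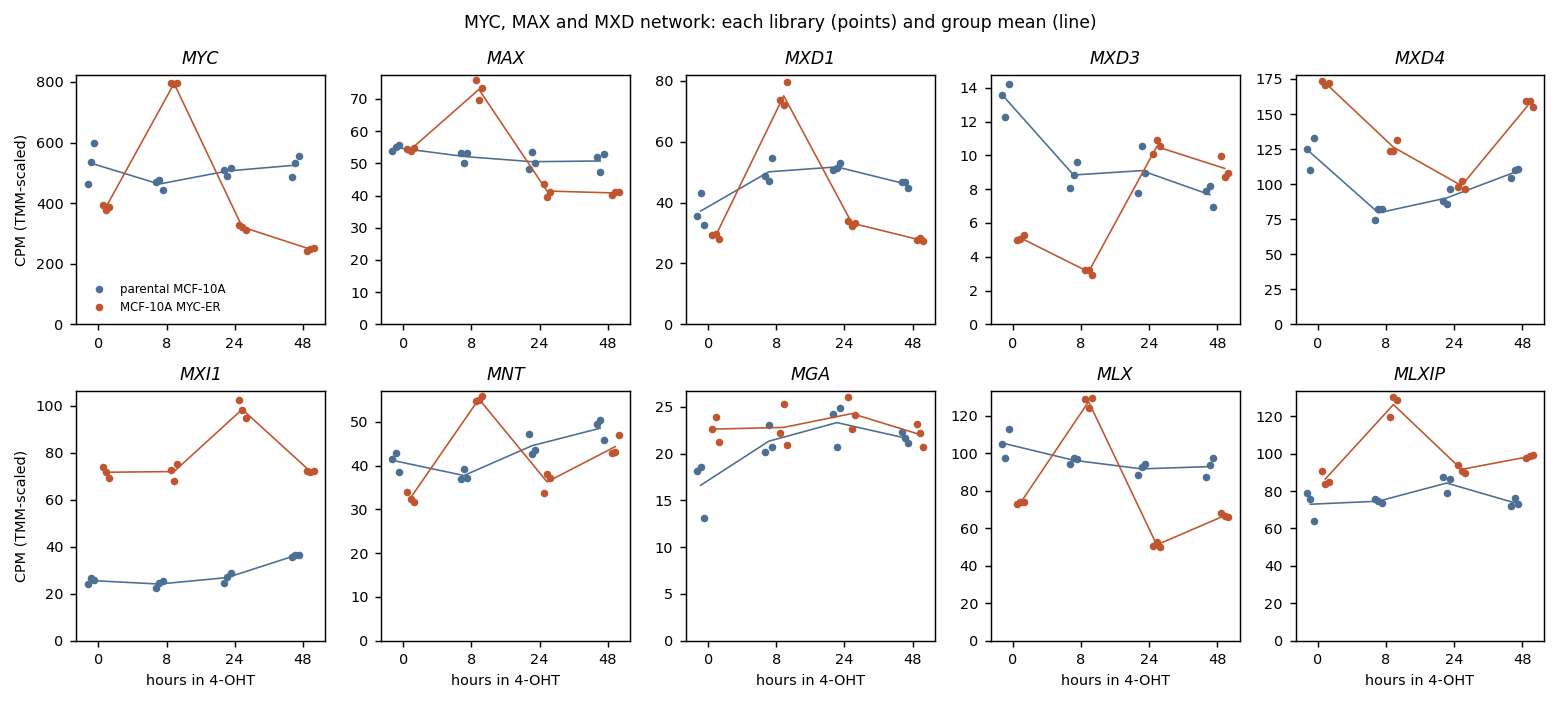
Scaled read counts (CPM, TMM-scaled, linear axis from 0) of each member in every library, by hours in 4-OHT, for parental MCF-10A (blue) and MCF-10A MYC-ER (orange), with points for the 3 libraries of a group and lines through the group means. MYC, MAX, MXD1, MNT, MLX and MLXIP peak at 8 h in MYC-ER cells, where MYC reaches 793 to 797 CPM.

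MYC (ENSG00000136997.19; GRCh38 chromosome 8, 127735434 to 127741434, plus strand, 3 exons in the basic GENCODE 29 set) rose and then fell below its starting level in MYC-ER cells. The 3 libraries held 394, 378 and 388 CPM at 0 h, 795, 793 and 797 at 8 h, 329.5, 322 and 312 at 24 h, and 244, 247 and 253 at 48 h. No library of any group was higher than the 3 at 8 h or lower than the 3 at 48 h, and none of the 4 MYC-ER groups overlapped another. The rise at 8 h was 1.04 on the log2 scale (SE 0.0677, edgeR adjusted p 8.28e-12), or 2.06-fold. From 8 h to 24 h the change was -1.31 (edgeR adjusted p 4.13e-13), and at 48 h against 0 h it was -0.64 (edgeR adjusted p 7.19e-08). Whether this row also counts reads from the MYC.ER transgene was not tested, so its values stand for MYC reads of either origin.

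Parental cells held 462, 535 and 599 CPM of MYC at 0 h, 471, 475 and 443 at 8 h, 511, 490.2 and 517 at 24 h, and 486, 534 and 556 at 48 h. Each later group overlapped the 0 h group. The change at 8 h was -0.20 (edgeR adjusted p 0.0274), and it did not pass without parental 0 h replicate 3 (-0.10, adjusted p 0.28), parental 8 h replicate 1 (-0.19, adjusted p 0.0674) or parental 8 h replicate 3 (-0.17, adjusted p 0.112). The change over 8 h differed between the lines by 1.24 (SE 0.0951, edgeR adjusted p 3.06e-10), and that over 48 h by -0.62 (edgeR adjusted p 1.7e-05), both as MYC-ER minus parental. At 24 h the same difference was -0.20 (edgeR adjusted p 0.0884), and it passed without parental 0 h replicate 3 (-0.30, adjusted p 0.00313). PVT1, the long non-coding RNA gene next to MYC, did not follow it in MYC-ER cells: its mean went from 34.4 CPM at 0 h through 26.0 CPM after 8 h and 20.6 CPM after 24 h to 39.2 CPM after 48 h. PVT1 fell at 8 h by 0.40 on the log2 scale (edgeR adjusted p 0.000416), and CASC11, the other neighbouring RNA, was between 7 and 67 counts per library, and no change over time within a line was called.

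MAX (ENSG00000125952.20; chromosome 14, 65006174 to 65102695, minus strand), the partner that MYC and the repressors compete for, rose at 8 h in MYC-ER cells and was below its starting level at 24 h and 48 h. MYC-ER libraries held 54.4, 53.9 and 54.8 CPM at 0 h, 75.8, 69.7 and 73.4 at 8 h, 43.7, 39.5 and 41.1 at 24 h, and 40.2, 41.2 and 41.0 at 48 h. The 8 h group lay above, and the 24 h and 48 h groups below, all 12 parental libraries, which ran from 47.2 to 55.8 CPM. The log2 change in MYC-ER cells was 0.42 at 8 h (SE 0.0506, edgeR adjusted p 1.59e-07), -0.39 at 24 h (edgeR adjusted p 6.58e-07) and -0.41 at 48 h (edgeR adjusted p 6.98e-07). No parental change of MAX passed the test, with adjusted p from 0.0612 to 0.291, though that at 24 h (-0.12) did without parental 24 h replicate 2 (-0.16, adjusted p 0.0227). The difference between the lines in these changes was 0.50 at 8 h (edgeR adjusted p 3.49e-06), -0.27 at 24 h (edgeR adjusted p 0.00278) and -0.30 at 48 h (edgeR adjusted p 0.00171).

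MXD1 (MAD1; ENSG00000059728.11; chromosome 2, 69897688 to 69942945, plus strand), a repressor linked to differentiation, had the highest relative rise of the network at 8 h. MYC-ER libraries held 29.4, 29.6 and 28.2 CPM at 0 h, 73.7, 72.1 and 79.5 at 8 h, 34.0, 32.3 and 33.4 at 24 h, and 27.6, 28.2 and 27.4 at 48 h. The 8 h group stood apart from all other libraries of both lines. The change at 8 h was 1.37 (SE 0.0732, edgeR adjusted p 2.84e-13), or 2.58-fold, and from 8 h to 24 h it was -1.18 (edgeR adjusted p 7.77e-12). At 24 h against 0 h it was 0.19 (edgeR adjusted p 0.0247), which did not pass without MYC-ER 0 h replicate 3 (0.17, adjusted p 0.0849), MYC-ER 24 h replicate 1 (0.18, adjusted p 0.0736) or MYC-ER 24 h replicate 3 (0.19, adjusted p 0.0569).

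Parental cells held 35.6, 43.2 and 32.8 CPM of MXD1 at 0 h and 45.0 to 54.5 CPM at the later times, with no overlap between 0 h and later. The rises were 0.43 at 8 h (edgeR adjusted p 0.000164), 0.47 at 24 h (edgeR adjusted p 2.88e-05) and 0.31 at 48 h (edgeR adjusted p 0.0015). The last did not pass with the GC trend removed (0.14, adjusted p 0.0664) or with only the groups compared (0.32, adjusted p 0.0863). Thus part of the MXD1 rise at 8 h was seen without the fusion, and the excess in MYC-ER cells was 0.94 (SE 0.102, edgeR adjusted p 6.76e-08). At 24 h and 48 h the difference between the lines was -0.28 (edgeR adjusted p 0.024) and -0.38 (edgeR adjusted p 0.00442). The value at 24 h did not pass without parental 0 h replicate 1 (-0.25, adjusted p 0.0613), parental 0 h replicate 3 (-0.21, adjusted p 0.071), parental 24 h replicate 3 (-0.26, adjusted p 0.052) or MYC-ER 24 h replicate 2 (-0.26, adjusted p 0.057).

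MXD3 (ENSG00000213347.10; chromosome 5, 177301461 to 177312757, minus strand), the family member tied to the S phase, fell at 8 h in MYC-ER cells, where MXD1 rose, and was above its 0 h level at 24 h and 48 h. MYC-ER libraries held 5.01, 5.08 and 5.27 CPM at 0 h, 3.21, 3.19 and 2.91 at 8 h, 10.1, 10.9 and 10.6 at 24 h, and 9.99, 8.70 and 8.99 at 48 h. The 0 h and 8 h groups were both below every parental library, and the 24 h and 48 h groups were within the parental range of 6.97 to 14.2 CPM. The changes were -0.72 at 8 h (edgeR adjusted p 1.43e-06) and 1.76 from 8 h to 24 h (SE 0.101, edgeR adjusted p 2.17e-12), or 3.39-fold. At 24 h against 0 h the change was 1.04 (edgeR adjusted p 5.41e-09) and at 48 h 0.85 (edgeR adjusted p 2.93e-07).

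In parental cells MXD3 fell from 13.6, 12.3 and 14.2 CPM at 0 h to between 6.97 and 10.5 CPM later, with changes of -0.60 at 8 h (edgeR adjusted p 0.00012), -0.56 at 24 h (edgeR adjusted p 0.000106) and -0.80 at 48 h (edgeR adjusted p 6.65e-06). The value at 24 h did not pass with the GC trend removed (-0.20, adjusted p 0.114). The lines therefore moved in opposite directions at 24 h and 48 h, and their changes differed by 1.59 (edgeR adjusted p 2.31e-09) and 1.65 (edgeR adjusted p 4.1e-09). At 8 h both fell and the difference was -0.13 (edgeR adjusted p 0.471). MXD3 shares 731 exon bases, 22.2% of its exons, with PRELID1 on the opposite strand. PRELID1 averaged 127, 278, 211 and 130 CPM at 0, 8, 24 and 48 h in MYC-ER cells and 203 to 296 CPM in parental groups. The libraries were strand-specific, but whether the counting used the strand is not given in the sources used here, so the MXD3 values are uncertain and the part of PRELID1 in them was not tested.

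MXD4 (ENSG00000123933.17; chromosome 4, 2247432 to 2262294, minus strand) was the most abundant MXD transcript per exon length in both lines, apart from MYC-ER at 24 h, where it overlapped MXI1. With the longest transcript as the length, the MXI1 mean was above that of MXD4 in that group (28.4 and 23.4 CPM per kb). MYC-ER libraries held 173, 171 and 172 CPM at 0 h, 124, 124 and 132 at 8 h, 98.0, 102 and 96.7 at 24 h, and 159, 159 and 155 at 48 h. Parental libraries held 125, 110.1 and 133 CPM at 0 h, 74.3, 82.2 and 82.0 at 8 h, 88.0, 85.7 and 96.6 at 24 h, and 105, 109.9 and 111 at 48 h. Both lines dipped and came back, with the lowest group at 8 h in parental and at 24 h in MYC-ER cells. In MYC-ER cells the change was -0.45 at 8 h (SE 0.0593, edgeR adjusted p 7.93e-07), -0.80 at 24 h (edgeR adjusted p 1.07e-10) and 0.67 from 24 h to 48 h (edgeR adjusted p 3.01e-09). In parental cells it was -0.62 at 8 h (edgeR adjusted p 3.34e-07) and -0.44 at 24 h (edgeR adjusted p 8.48e-06).

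The MXD4 fall was present in both lines, and its size differed between them at 24 h (-0.36, edgeR adjusted p 0.00107), while the difference at 8 h was 0.18 (edgeR adjusted p 0.0792). The parental change at 48 h, -0.18 (edgeR adjusted p 0.0212), did not pass without parental 0 h replicate 1 (-0.16, adjusted p 0.0689), parental 0 h replicate 3 (-0.08, adjusted p 0.298) or parental 48 h replicate 1 (-0.15, adjusted p 0.0848), and was 0.04 (adjusted p 0.564) with the GC trend removed.

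MXI1 (MXD2; ENSG00000119950.21; chromosome 10, 110207605 to 110287365, plus strand) differed more between the lines than over time. MYC-ER libraries held 74.1, 71.9 and 69.2 CPM at 0 h, 72.8, 68.2 and 75.2 at 8 h, 102.5, 98.2 and 95.0 at 24 h, and 72.2, 71.7 and 72.3 at 48 h. Parental libraries held 24.2, 26.7 and 25.9 CPM at 0 h, 22.4, 24.5 and 25.4 at 8 h, 24.7, 26.9 and 29 at 24 h, and 35.6, 36.7 and 36.5 at 48 h. All 12 MYC-ER libraries were above all 12 parental ones. The difference was 1.49 at 0 h (SE 0.0592, edgeR adjusted p 2.42e-15), 1.58 at 8 h, 1.88 at 24 h (edgeR adjusted p 2.86e-16) and 0.99 at 48 h (edgeR adjusted p 4.66e-12). Within MYC-ER cells MXI1 rose at 24 h by 0.46 (edgeR adjusted p 4.37e-07) and fell back by 0.45 to 48 h (edgeR adjusted p 7.63e-07), and within parental cells it rose at 48 h by 0.50 (edgeR adjusted p 4.33e-06). At 8 h its change in MYC-ER cells was 0.01 (edgeR adjusted p 0.935), and -0.13 (adjusted p 0.0429) under upper quartile scaling.

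MNT (ENSG00000070444.15; chromosome 17, 2384060 to 2401118, minus strand), the constitutive MAX partner, rose at 8 h with MYC. MYC-ER libraries held 34.0, 32.5 and 31.7 CPM at 0 h, 54.8, 55.0 and 55.9 at 8 h, 33.7, 38.0 and 37.2 at 24 h, and 42.9, 43.1 and 47.0 at 48 h. Parental libraries ran from 38.6 to 43.0 CPM before 4-OHT, from 37.0 to 39.2 CPM after 8 h, from 42.8 to 47.3 CPM after 24 h and from 45.9 to 50.3 CPM after 48 h. The MYC-ER 8 h group was above all other libraries. The change was 0.76 at 8 h (SE 0.0573, edgeR adjusted p 1.09e-10) and 0.44 at 48 h (edgeR adjusted p 1.58e-06) in MYC-ER cells, and 0.24 at 48 h (edgeR adjusted p 0.00167) in parental cells. The change over 8 h differed between the lines by 0.88 (SE 0.0808, edgeR adjusted p 5.41e-09).

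The MNT change of 0.15 at 24 h in MYC-ER cells (edgeR adjusted p 0.0278) came from overlapping groups. It did not pass without MYC-ER 0 h replicate 2 (0.14, adjusted p 0.0682), MYC-ER 0 h replicate 3 (0.13, adjusted p 0.105), MYC-ER 24 h replicate 2 (0.12, adjusted p 0.13) or MYC-ER 24 h replicate 3 (0.13, adjusted p 0.0909). MNT shares 1065 exon bases, 21.3% of its exons, with AC006435.1 on the opposite strand, a gene at 0 to 0.0126 CPM in every library.

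MGA (ENSG00000174197.16; chromosome 15, 41621224 to 41773081, plus strand), the largest protein of the network and the scaffold of PRC1.6, was flat in MYC-ER cells. All 12 MYC-ER libraries lay between 20.8 and 26.1 CPM, the 4 groups overlapped, and no change over time passed the test in that line. Parental libraries held 18.1, 18.6 and 13.1 CPM at 0 h and 20.2 to 24.9 CPM later. The parental rises were 0.36 at 8 h (SE 0.106, edgeR adjusted p 0.0131), 0.49 at 24 h (edgeR adjusted p 0.000753) and 0.38 at 48 h (edgeR adjusted p 0.00575). That at 8 h did not pass without parental 0 h replicate 3, the lowest library (0.23, adjusted p 0.0751), or without parental 8 h replicate 2 (0.30, adjusted p 0.0692). That at 48 h did not pass with the GC trend removed (0.19, adjusted p 0.146) or with only the groups compared (0.39, adjusted p 0.0798).

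MLX (ENSG00000108788.11; chromosome 17, 42567068 to 42573239, plus strand), the hub of the parallel branch, rose at 8 h in MYC-ER cells and had dropped below its starting level by 24 h. MYC-ER libraries held 72.8, 73.7 and 73.7 CPM at 0 h, 129, 124 and 129 at 8 h, 50.4, 52.7 and 49.99 at 24 h, and 68.0, 66.3 and 65.8 at 48 h. The 8 h group was above, and the other 3 groups below, all 12 parental libraries, which ran from 87.2 to 113 CPM. The change was 0.80 at 8 h (SE 0.05, edgeR adjusted p 4.47e-12), -1.32 from 8 h to 24 h (edgeR adjusted p 2.28e-15) and 0.39 from 24 h to 48 h (edgeR adjusted p 9.07e-07). The change over 8 h exceeded the parental one, -0.13 (edgeR adjusted p 0.0598), by 0.92 (SE 0.0704, edgeR adjusted p 2.84e-10).

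At 48 h against 0 h the MLX change was -0.14 (edgeR adjusted p 0.0278), and 0.02 (adjusted p 0.673) scaled by library size alone. It did not pass without MYC-ER 0 h replicate 2 (-0.14, adjusted p 0.0666), MYC-ER 0 h replicate 3 (-0.14, adjusted p 0.0649), MYC-ER 48 h replicate 2 (-0.14, adjusted p 0.073) or MYC-ER 48 h replicate 3 (-0.13, adjusted p 0.0803). The parental changes were -0.20 at 24 h (edgeR adjusted p 0.00277) and -0.18 at 48 h (edgeR adjusted p 0.00647), the latter not passing without parental 0 h replicate 3 (-0.09, adjusted p 0.131). Neither passed with the GC trend removed (-0.10 at both times, adjusted p 0.11 and 0.108) or with only the groups compared (adjusted p 0.134 and 0.239). MLX shares 770 exon bases, 29.7% of its exons, with PSMC3IP on the opposite strand, so its values are uncertain too. PSMC3IP averaged 1.20, 3.43, 12 and 2.73 CPM at 0, 8, 24 and 48 h in MYC-ER cells and was highest at 24 h, where MLX was lowest.

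MLXIP (MondoA; ENSG00000175727.14; chromosome 12, 122078722 to 122147347, plus strand), the metabolite-sensing partner, also rose at 8 h and came back towards its starting level afterwards. MYC-ER libraries held 90.9, 83.8 and 84.7 CPM at 0 h, 119.9, 130.4 and 129 at 8 h, 94.1, 91.0 and 89.7 at 24 h, and 97.7, 98.8 and 99.1 at 48 h, against 63.9 to 87.3 CPM in the 12 parental libraries. The 8 h group stood above all others. The change was 0.55 at 8 h (SE 0.0613, edgeR adjusted p 6.38e-08) and 0.08 at 24 h (edgeR adjusted p 0.247). At 48 h it was 0.19 (edgeR adjusted p 0.0157), and it did not pass without MYC-ER 0 h replicate 2 (0.17, adjusted p 0.0693) or MYC-ER 0 h replicate 3 (0.17, adjusted p 0.0605), or with the GC trend removed (0.09, adjusted p 0.322). The difference between the lines over 8 h was 0.51 (edgeR adjusted p 2.79e-05). Parental means were 73.0, 74.6, 84.3 and 73.7 CPM at 0, 8, 24 and 48 h. The parental rise at 24 h passed the test. It did not pass under upper quartile scaling (0.13, edgeR adjusted p 0.06) or with only the groups compared (0.21, edgeR adjusted p 0.164).

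**Figure D2:**
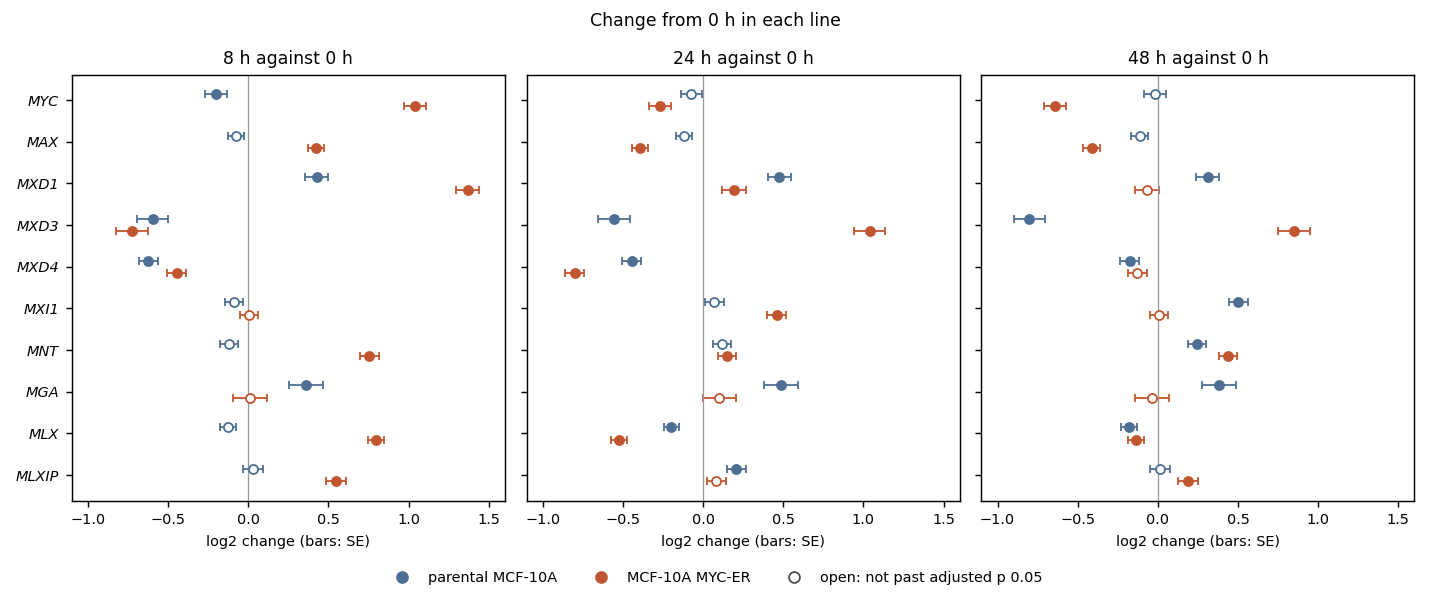
Fitted log2 change from 0 h of each member at 8, 24 and 48 h (3 panels), for parental MCF-10A (blue) and MCF-10A MYC-ER (orange), with bars for the standard error and open points where the adjusted p did not pass 0.05. At 8 h the MYC-ER points of MYC (1.04), MXD1 (1.37), MNT (0.76) and MLX (0.80) stand to the right of the parental ones, and at 24 h and 48 h the lines separate most for MXD3.

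Of 3 genes that MondoA and MLX are known to drive, TXNIP and ARRDC4 fell at 8 h in MYC-ER cells, while MLX and MLXIP rose, and KLF10 rose. TXNIP, a brake on glucose uptake, held 1812, 1872 and 1825 CPM in MYC-ER cells at 0 h and 643 to 674 CPM at 8 h, against 412 to 526 CPM in all parental libraries. It fell at 8 h in MYC-ER cells by 1.48 on the log2 scale (SE 0.0512, edgeR adjusted p 1.95e-16) and was still lower at 48 h (-1.1, edgeR adjusted p 1.03e-13). ARRDC4, an arrestin-like relative of TXNIP, held 40.0, 41.9 and 37.4 CPM at 0 h and 15.0, 15.9 and 14.9 at 8 h in MYC-ER cells, a change of -1.38 (edgeR adjusted p 2.23e-12). In parental cells TXNIP fell at 8 h by 0.20 (edgeR adjusted p 0.00526). ARRDC4 was at 31.8 to 34.4 CPM at 24 h in MYC-ER cells, above its 8 h level and still below 0 h (-0.26, edgeR adjusted p 0.00753). KLF10, the third gene of this list, rose at 8 h in both lines, by 1.33 in MYC-ER cells (edgeR adjusted p 2.45e-12) and by 0.80 in parental cells (edgeR adjusted p 5.54e-07). The changes over 8 h differed between the lines by -1.28 for TXNIP, -1.45 for ARRDC4 and 0.53 for KLF10 (edgeR adjusted p 1.65e-12, 5.85e-10 and 0.000354).

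**Figure D3:**
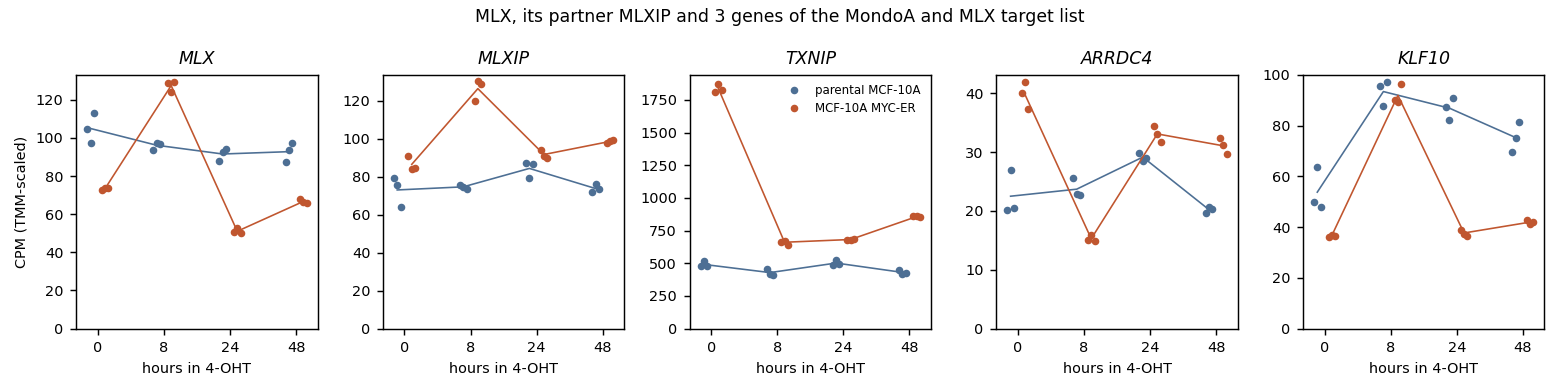
Scaled read counts (CPM, TMM-scaled, linear axes from 0) of MLX, MLXIP, TXNIP, ARRDC4 and KLF10 in every library, by hours in 4-OHT, for parental MCF-10A (blue) and MCF-10A MYC-ER (orange), with lines through the group means. In MYC-ER cells MLX and MLXIP are highest at 8 h while TXNIP drops from 1836 to 661 CPM on average and ARRDC4 from 39.7 to 15.3 CPM.

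The lines already differed before 4-OHT. At 0 h 4 members were higher and 5 lower in the MYC-ER line, and MAX did not pass, beside 31.6% and 32.7% of all genes. MXI1 (1.49), MXD4 (0.49), MGA (0.45) and MLXIP (0.24) were higher, and MXD3 (-1.39), MLX (-0.52), MYC (-0.46), MXD1 (-0.36) and MNT (-0.33) lower, on the log2 scale with edgeR adjusted p from 2.42e-15 to 0.00144. At 8 h 8 members were higher and 1, MXD3, lower (23.1% and 25.5% of all genes). At 24 h 1 member, MXI1, was higher and 5 lower (23.5% and 25.8%), and at 48 h 4 were higher and 4 lower (27.3% and 29.4%). The 24 h count of higher members was 3 with DESeq2 and 4 under upper quartile scaling or by library size alone, where MXD3, MXD4 and MLXIP also passed. It was 3 without parental 0 h replicate 3, and 2 without parental 0 h replicate 2, 8 h replicate 1, 24 h replicate 2 or 24 h replicate 3. MYC, MXD1, MNT and MLX were thus below the parental level at 0 h, above it at 8 h and below it again at 24 h, each of these 12 differences passing the test. How many of all genes had the same order of calls was not counted, so this order is not shown to be particular to these members. The MNT difference at 0 h did not pass with the GC trend removed (-0.10, adjusted p 0.239), nor that at 24 h scaled by library size alone (-0.17, adjusted p 0.0543). The MXD3 difference at 48 h, 0.27 (edgeR adjusted p 0.0241), did not pass without parental 48 h replicate 3 (0.20, adjusted p 0.126) or MYC-ER 48 h replicate 1 (0.20, adjusted p 0.122).

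**Figure D4:**
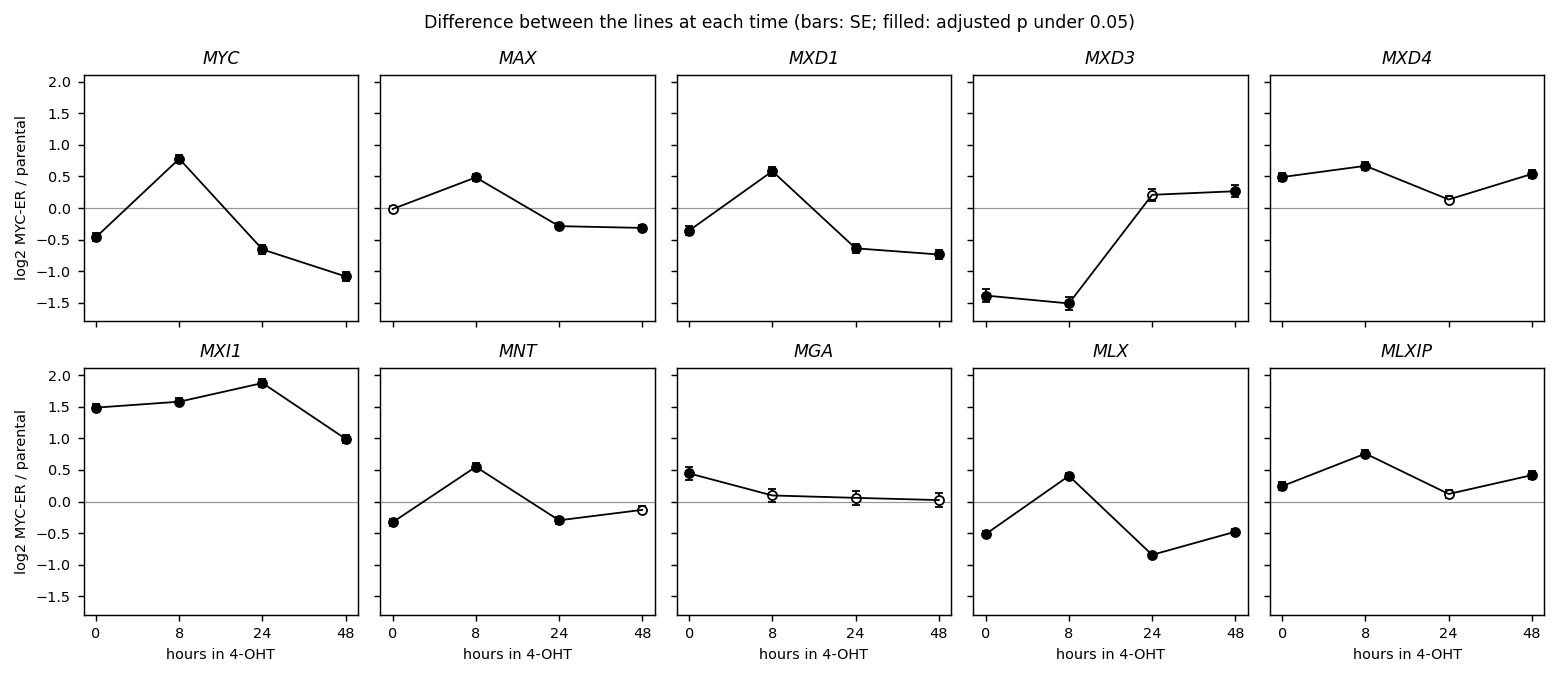
Fitted log2 difference of MYC-ER against parental cells at 0, 8, 24 and 48 h of 4-OHT for each member, with bars for the standard error and filled points where the adjusted p passed 0.05. MYC, MXD1, MNT and MLX cross the zero line at 8 h only, MXI1 stays above it at all times (0.99 to 1.88), and MXD3 moves from -1.39 at 0 h to 0.27 at 48 h.

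Tested as a difference between the lines in the change from 0 h, 6 members had a more positive change in MYC-ER cells at 8 h, beside 27.3% of all genes. With MXD4 added, 7 had one by DESeq2 and at an unadjusted p under 0.05. No member was called lower there (1, MGA, at an unadjusted p under 0.05, and 0 by DESeq2), beside 27.8% of all genes. MGA (-0.35, edgeR adjusted p 0.0529) passed there under 10 settings, among them without parental 0 h replicate 1 or 2, 8 h replicate 1 or 24 h replicate 2, or MYC-ER 0 h replicate 3 or 8 h replicate 2. At 24 h 2 were higher and 5 lower (27.7% and 26.8%), and at 48 h 1 was higher and 5 lower (23.6% and 21.4%). The 2 higher at 24 h were MXD3 and MXI1. The higher one at 48 h was MXD3. MNT (0.20, edgeR adjusted p 0.0525) also passed there under 11 of 33 settings, among them DESeq2 and the fits without parental 0 h replicate 3, 24 h replicate 1 or 48 h replicate 2, or MYC-ER 0 h replicate 1, 24 h replicate 1 or 48 h replicate 1. MLXIP passed there under 3 settings, by library size alone (0.28), under upper quartile scaling (0.25) and without parental 0 h replicate 3 (0.24). The count of 5 lower at 24 h was 3 without parental 24 h replicate 3 or MYC-ER 24 h replicate 2.

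Per kilobase of exon, MYC was the most abundant transcript of the network in all 8 groups, at 82.6 CPM per kb in MYC-ER cells at 48 h up to 265 at 8 h, and 154 to 177 in parental groups. In parental cells MLX (35.4 to 40.5 CPM per kb) came next, then MXD4 (19.6 to 30.2) and MAX (12.3 to 13.4), and none of these neighbours overlapped at any time. Below MAX, the levels of MNT, MLXIP, MXD1 and MXI1 were between 5.95 and 9.72 CPM per kb, and at 0 h MNT and MLXIP, MLXIP and MXD1, and MXD1 and MXI1 overlapped as neighbours. MXD3 (2.33 to 4.06) and MGA (1.09 to 1.54) were the lowest. In MYC-ER cells MXD4 ranked above MLX at 0 h (42.5 and 28.4), 24 h (24.4 and 19.7) and 48 h (38.9 and 25.8), and MXI1 above MAX at the same times (17.7 and 13.3 at 0 h). At 8 h MLX was next to MYC, with 49.2 CPM per kb, and MXD3 (0.943) fell below MGA (1.502). MXD4 and MXI1 overlapped at 24 h, at 24.4 and 24.3 CPM per kb, but were at 23.4 and 28.4 with the longest transcript as the length.

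To set MYC beside its competitors, its level per kb was divided by the summed level per kb of MXD1, MXD3, MXD4, MXI1 and MNT in each library. The ratio describes transcripts and says nothing of protein or of dimers. In MYC-ER cells it was 1.76, 1.72 and 1.78 at 0 h, 3.60, 3.67 and 3.44 at 8 h, 1.68, 1.63 and 1.63 at 24 h, and 1.10, 1.13 and 1.15 at 48 h. In parental cells it ranged from 2.77 to 3.70 over all 12 libraries. The MYC-ER libraries were thus within the parental range at 8 h and below it at the other 3 times. With the longest transcript as the length, an alternative chosen after seeing the data, the MYC-ER means were 2.17, 4.40, 1.95 and 1.38 in place of 1.76, 3.57, 1.64 and 1.13, and the parental means 3.86 to 4.25. By that length the MYC-ER mean at 8 h (4.40, SD 0.145) was above every parental mean, the highest being 4.25 (SD 0.332) at 8 h.

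The repressor sum itself changed little at 8 h in MYC-ER cells, 74.3 ± 2.65 CPM per kb against 73.4 ± 1.02 at 0 h (SD, n = 3), but its make-up changed. The share of MXD4 was 57.8% ± 0.694 at 0 h and 41.9% ± 0.426 at 8 h, that of MXD1 7.05% ± 0.143 and 18.0% ± 0.289, and that of MNT 8.91% ± 0.192 and 14.9% ± 0.392. At 24 h, per kb of exon, MXI1 made up 37.4% ± 1.18, level with MXD4 at 37.5% ± 0.578. In parental cells the sum fell from 55.4 ± 1.62 CPM per kb at 0 h to 44.7 ± 2.09 at 8 h, and MXD4 stayed the largest share at 43.8% to 54.4%. Both lines thus had less MXD4 and more MXD1 in the mix at 8 h, while MXI1 took 23.9% to 37.4% of it in MYC-ER and 11.4% to 16% in parental cells on average. The MYC to MAX ratio per kb in MYC-ER cells was 9.73 ± 0.164 before 4-OHT, 14.9 ± 0.61 after 8 h, 10.6 ± 0.474 after 24 h and 8.31 ± 0.123 after 48 h, against group means of 12.2 to 14.2 in parental cells.

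**Figure D5:**
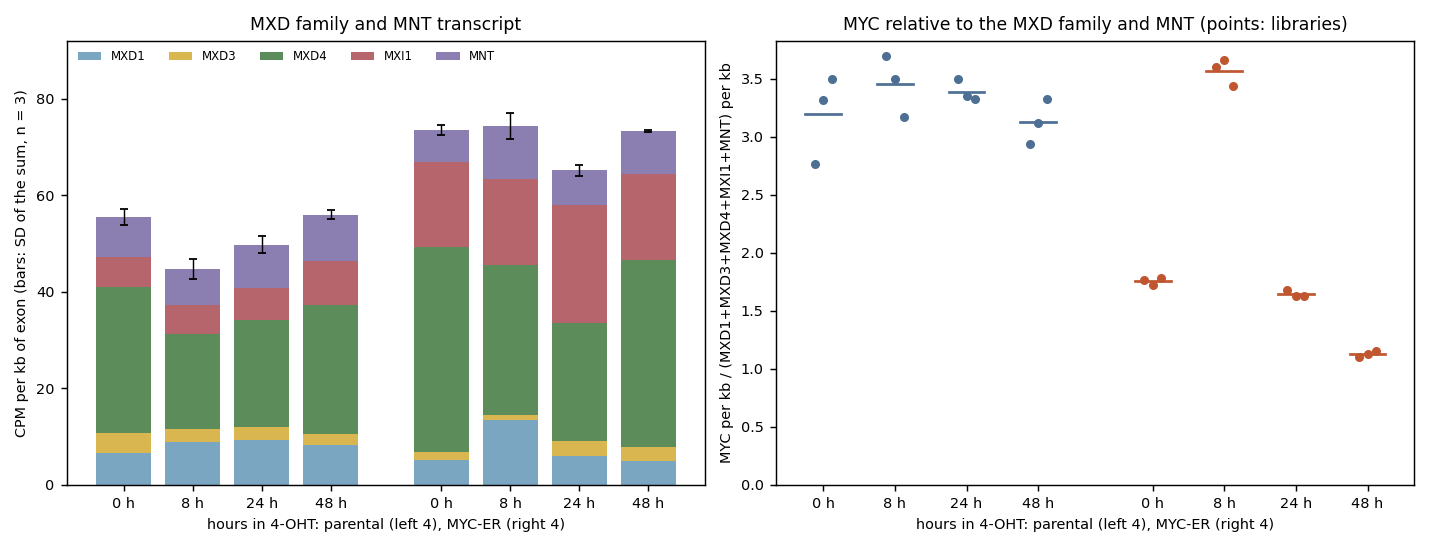
Left, mean CPM per kb of exon of MXD1, MXD3, MXD4, MXI1 and MNT stacked for each group (bars for the SD of the sum over 3 libraries), with the parental groups first and the MYC-ER groups after the gap. Right, MYC per kb divided by that sum in each library (points) with group means (lines): MYC-ER libraries reach 3.44 to 3.67 at 8 h, within the parental range of 2.77 to 3.70, and are lower at 0, 24 and 48 h.

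Counts for the lists that follow stand beside 32.2% of all genes higher and 35.4% lower at 8 h in MYC-ER cells, and 15% and 16% in parental cells. All these lists were chosen with earlier results of these data known. Of 17 SIN3 and histone deacetylase genes, the corepressor that MXD proteins and MNT recruit, 7 were higher and 8 lower at 8 h in MYC-ER cells, with a median log2 change of -0.13 against -0.10 over all genes. HDAC2, a deacetylase of the complex, rose from a mean of 79.2 to 150.4 CPM (0.93, edgeR adjusted p 5.54e-14), and BRMS1, a SIN3 subunit, from 46.7 to 83.9 CPM (0.84, edgeR adjusted p 1.52e-08). SIN3B, a scaffold that MXD proteins bind, fell from 131 to 66.5 CPM (-0.98, edgeR adjusted p 2.49e-13). In parental cells at 8 h 1 gene of this list was higher and 2 were lower.

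Of 17 MYC coactivators and partners, 11 were higher and 3 lower at 8 h in MYC-ER cells, with a median of 0.22, and 2 higher and 8 lower in parental cells. RUVBL1 and RUVBL2, paired ATPases of the TIP60 and INO80 complexes, rose by 1.90 and 1.31 on the log2 scale (edgeR adjusted p 9.42e-17 and 3.92e-11). The acetyltransferases CREBBP and EP300 fell, from 116.7 to 70.0 CPM (-0.74, edgeR adjusted p 3.61e-08) and from 47.5 to 30.8 CPM (-0.62, edgeR adjusted p 6.34e-05). By 48 h 3 genes of the list were higher and 5 lower than at 0 h in MYC-ER cells (23.4% and 20.7% of all genes).

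Among 16 genes of MYC protein turnover, 10 were higher and 2 lower at 8 h, with a median of 0.43. AURKA, a mitotic kinase that can stabilise MYC proteins, averaged 5.64 CPM in untreated MYC-ER cells, 11.5 CPM after 8 h, 69.7 CPM after 24 h and 22.6 CPM after 48 h, and 52.9 to 74.5 CPM in parental groups. SET, an inhibitor of the phosphatase PP2A, rose by 0.92 at 8 h (edgeR adjusted p 1.57e-12). The 2 that fell act on opposite sides: FBXW7, the ubiquitin ligase receptor for phosphorylated MYC (-0.95, edgeR adjusted p 2.09e-11), and USP28, a deubiquitinase that counters it (-0.35, edgeR adjusted p 0.00052). Of the 9 other PRC1.6 genes, 7 were higher and 1 lower at 8 h while MGA itself was level, with RNF2 at 1.00, L3MBTL2 at 0.84 and RING1 at -0.51 (edgeR adjusted p 4.46e-09, 7.12e-11 and 6.74e-08). At 48 h 5 of these 9 were lower than at 0 h, beside 20.7% of all genes. In parental cells at 8 h 4 of these 9 were higher and 2 lower, RNF2 among the higher (0.60, edgeR adjusted p 9.35e-05), and 6 of the 16 turnover genes were higher and 5 lower.

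The 16 genes listed as activated by MYC started from a lower level in MYC-ER cells. At 0 h 15 of them were below the parental line, beside 32.7% of all genes. The median difference was -0.91 against 0 over all genes. All 16 were higher at 8 h in MYC-ER cells and all 16 at 24 h, beside 32.2% and 30.4% of all genes. As the list was chosen with earlier results of these data known, these counts are no independent test. The medians were 1.36 and 1.30 against -0.10 and -0.02 over all genes. At 48 h 13 were higher and 1 lower (23.4% and 20.7% of all genes), with a median of 0.46. In parental cells at 8 h 2 were higher and 2 lower. Set against parental cells at the same time, 13 were higher and 2 lower at 8 h (median 0.53), 8 and 1 at 24 h (0.28), and 2 and 12 at 48 h (-0.70). The shares of all genes higher and lower there were 23.1% and 25.5% at 8 h, 23.5% and 25.8% at 24 h, and 27.3% and 29.4% at 48 h. ODC1, the first enzyme of polyamine synthesis, held 60.5, 65.2 and 65.7 CPM at 0 h and 510.1, 479 and 500.4 at 8 h in MYC-ER cells, a rise of 2.96 (SE 0.0632, edgeR adjusted p 9.71e-20), and it was below the parental mean of 502 CPM at 0 h. TERT, the telomerase protein, had 0 to 2 counts per untreated MYC-ER library. After 8 h it had 302 to 331 counts, after 24 h 790 to 870 and after 48 h 65 to 118, against 36 to 94 in parental libraries.

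Of 8 tested genes that MYC is known to repress, 4 were lower and 2 higher at 8 h in MYC-ER cells. Of all genes 35.4% were lower and 32.2% higher there. The median was -0.63 against -0.10 over all genes, and whether the list differs from all genes was not tested. GAS1, a growth arrest gene, fell from 35.5 to 2.79 CPM (-3.67, edgeR adjusted p 3.76e-18), and CEBPA, a differentiation factor, from 11.2 to 4.55 CPM (-1.30, edgeR adjusted p 2.16e-10). NDRG1, a stress and differentiation gene, rose from 331 to 2285 CPM (2.79, edgeR adjusted p 4.27e-12), and GADD45A from 15.1 to 19.2 CPM (0.34, edgeR adjusted p 0.000206). In parental cells at 8 h 1 gene of this list was higher, NDRG1 (0.76, edgeR adjusted p 0.00156), and 2 were lower, CEBPA (-0.59, edgeR adjusted p 0.000207) and GAS1 (-0.39, edgeR adjusted p 0.0032). GAS1 started at 35.5 CPM in MYC-ER cells against 4.13 CPM in parental cells at 0 h.

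The profiles of the members were compared with each other and with those of other genes. Each member had a gene outside the network nearer to it than any other member was. The measure is not scaled by range, so genes that vary little can lie close without a shared course. Over the 8 groups, the root mean square difference of mean log2 CPM, each gene centred on its own mean, was smallest between MAX and MLX (0.217), MGA and MLXIP (0.222), MYC and MLX (0.227), and MYC and MXD1 (0.232). Among 10492 candidate genes the nearest to MYC were ATG16L1 (0.101) and CSRNP1 (0.118), to MAX TTC38 (0.0497) and VPS53 (0.0502), and to MXD1 ARF4 (0.0464) and CAB39 (0.0756). Those nearest to MXD3 were NRM (0.144) and ZDHHC12 (0.222), to MXD4 PTOV1 (0.117) and ENDOV (0.122), and to MXI1 ICAM5 (0.13) and CYP2U1 (0.2). MNT was nearest to NFKB1 (0.119) and RHBDD1 (0.131), MGA to STT3B (0.0478) and FOXJ3 (0.0481), MLX to PSEN2 (0.0862) and DLGAP4 (0.0872), and MLXIP to CHST3 (0.0779) and UBFD1 (0.0836). All profiles come from the same 24 libraries and share their scaling. The group means of MGA spanned 0.56 on the log2 scale and those of MXD3 2.101.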

How the data were processed

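The deposited file is a table of raw counts per gene and library, whole numbers with Ensembl identifiers as given by the authors. The submitters' processing notes name Trimmomatic 0.39, STAR, StringTie 2.1.3b and GRCh38, and their roles, the annotation release and the use of strand are not given in the sources used here. Genes were matched by identifier to symbols for 60295 of 60668 rows.

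All 24 libraries were fitted together with edgeR 4.0.16 (R 4.3.3; filterByExpr, TMM, quasi-likelihood test on 8 group means, 16 residual degrees of freedom), and p-values were adjusted by Benjamini-Hochberg over 22158 genes for each of 15 contrasts. The fit was tested on simulated data. DESeq2 1.42.0 and 32 other settings were alternatives: 3 other scalings, 2 other filters, a block for the replicate number, a fit restricted to the groups compared, a GC trend removed (lowess span 0.3; GC content known for 98% of tested genes), and leaving out each of the 24 libraries. Levels per kb use merged exons of the basic GENCODE 29 set. Loci are those of GENCODE 29 on GRCh38, and start-site windows those of RefSeq on GRCh38.p14. Counting error is small at this depth: the members had 436 to 119459 counts per library. Pairs of replicates differed by more than sampling noise, so none was counted as 1 library. The chi-square of their counts per degree of freedom was 173 to 285 in the parental 0 h group. It was 16.3 to 68.8 in the later parental groups and 8.93 to 29.6 in MYC-ER groups. The fit shares 1 estimate of the spread over all groups, so p-values of comparisons that use parental 0 h may be too small.

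The members and the gene lists were chosen with earlier results of these data known. All members were named, with every gene of a list of 5 or fewer, the 2 largest rises and falls of each longer list past the threshold at 8 h in MYC-ER cells, and the 2 nearest profiles to each member among genes with at least 10 CPM in their highest group. Some genes that this rule or the marker lists cover are not reported here.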

Additional observations from a re-analysis of the deposited data

Results flagged for a closer look

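Changes from 0 h that differed between the lines, MYC-ER minus parental on the log2 scale with edgeR adjusted p under 0.05, were drawn out for 19 member and time pairs. Of all genes 27.3% were called higher and 27.8% lower in this difference at 8 h. The shares were 27.7% and 26.8% at 24 h, and 23.6% and 21.4% at 48 h. At 8 h the differences were 1.24 for MYC, 0.50 for MAX, 0.94 for MXD1, 0.88 for MNT, 0.92 for MLX and 0.51 for MLXIP. At 24 h they were -0.27 for MAX, -0.28 for MXD1, 1.59 for MXD3, -0.36 for MXD4, 0.39 for MXI1, -0.39 for MGA and -0.33 for MLX. At 48 h they were -0.62 for MYC, -0.30 for MAX, -0.38 for MXD1, 1.65 for MXD3, -0.50 for MXI1 and -0.42 for MGA.

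The MGA values rest on a few libraries. The value at 24 h did not pass without parental 0 h replicate 3 (-0.25), parental 24 h replicate 1 (-0.36) or replicate 3 (-0.34), MYC-ER 0 h replicate 1 (-0.39) or replicate 2 (-0.34), or MYC-ER 24 h replicate 2 (-0.34) or replicate 3 (-0.38), with adjusted p from 0.0527 to 0.0847. That at 48 h did not pass without parental 48 h replicate 1 (-0.40, adjusted p 0.0507), MYC-ER 0 h replicate 2 (-0.38, adjusted p 0.0645) or MYC-ER 48 h replicate 3 (-0.38, adjusted p 0.0633).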

How the results depend on the processing

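Of 150 member and contrast values, 106 passed the threshold, 82 of them under all 33 alternatives, and 14 of the 44 others passed under none. Over the 15 contrasts 15% to 32.2% of all genes were called higher and 16% to 35.4% lower. The count of members called differed by more than 1.5 times in 2 contrasts: in parental cells at 8 h it was 5, with a range of 3 to 6 when 1 library was left out and 2 with only the groups compared, and at 48 h it was 7, with 4 once the GC trend was removed and 2 with only the groups compared. The other 13 totals stayed within 1.5 times, though counts in 1 direction moved more. With the GC trend removed 1 member in place of 3 was lower in parental cells at 24 h and at 48 h. With only the groups compared 5 in place of 3 were lower from 24 h to 48 h in MYC-ER cells, 1 in place of 4 was higher in parental cells at 48 h, and 3 in place of 5 were lower in the difference between the lines at 24 h. Upper quartile scaling gave 5 in place of 3 lower in parental cells at 8 h. By library size alone the difference between the lines at 48 h had 4 in place of 1 higher and 3 in place of 5 lower. The direction or call turned for MXI1 at 8 h in MYC-ER cells under upper quartile scaling (-0.13), MLX at 48 h in MYC-ER cells by library size alone (0.023), and, with the GC trend removed, MXD4 at 48 h in parental cells (0.038) and in the difference between the lines at 48 h (-0.26); the cause was not tested. A further 60 values of uncalled results changed sign and stayed uncalled. Calls changed for 27 values with the GC trend removed, 21 with only the groups compared, 17 by library size alone and 15 under upper quartile scaling, against 4 with DESeq2. Scaling moved the median of all genes: at 24 h against 8 h in MYC-ER cells it was 0.05 in the report and 0.26 by library size alone. The replicate block changed 1 value: the MGA difference between the lines at 8 h passed (-0.36, adjusted p 0.0395). Same-numbered libraries did not deviate together (lowest correlation -0.365, and 9 of 24 libraries closest to their own number), so the numbers were not taken to pair samples.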

Other observations

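Other relatives of the network were low. No read was counted for MYCN in any of the 24 libraries, a count of 0 that allows up to 3 per library by counting error alone. MYCL, the third MYC gene, averaged 1.09 CPM in MYC-ER cells at 0 h (173 to 200 counts per library) and 0.135 CPM at 8 h (15 to 25 counts), a change of -3.01 (SE 0.371, edgeR adjusted p 2.70e-07), and 0.101 to 0.219 CPM in parental groups. MLXIPL (ChREBP), the relative of MLXIP known from liver and fat, averaged 1.46 CPM in untreated MYC-ER cells, 0.419 CPM after 8 h, 0.594 CPM after 24 h and 6.81 CPM after 48 h. Its rise at 48 h against 0 h was 2.22 (SE 0.216, edgeR adjusted p 2.36e-08), with 1050 to 1230 counts per library, and parental groups stayed between 0.298 and 0.563 CPM. ESR1, the human oestrogen receptor alpha gene, was between 0 and 0.0355 CPM in MYC-ER libraries at 8 h and between 0.107 and 0.557 CPM in the other MYC-ER libraries. Parental libraries, which lack the fusion, held 0.115 to 0.351 CPM of ESR1.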
